A study of Homo sapiens with 17 samples.

Results

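The genes described here are those of the hypoxia response and of glycolysis: 4 hypoxia factors, 23 genes of sugar breakdown and lactate handling and 9 further genes that hypoxia-inducible factors are known to switch on. Members were listed by symbol and matched to Ensembl gene identifiers. The matching used no measured value, but the list was chosen with earlier results of these data known. All 36 were found among the 58302 identifiers of the count tables and among the 28285 of the TPM tables. RNA was read in 17 libraries of cells made from the established human embryonic stem cell line H1. Endothelial cells carrying an enhanced green fluorescent protein reporter for GATA2 (a transcription factor of endothelium that gives rise to blood) were selected as GATA2+ after differentiation with vitamin C (Vc+) or without it (Vc-). The groups were sorted GATA2+ endothelial cells from Vc+ (2 libraries) and Vc- (2 libraries); cells re-plated for 0, 24, 36, 48 and 60 h from Vc+ and Vc- (1 library for each time and condition, called the course below); suspended cells from Vc+ at 60 h and at 96 h (1 library each); and adherent cells from Vc+ at 60 h (1 library). From 24 h on, the labels call the course libraries mixtures of endothelial and hematopoietic cells, call the adherent cells a mixture too, and call the suspended cells hematopoietic. The labels give no oxygen tension, do not state whether vitamin C was kept after re-plating, and do not say that libraries came from separate cultures, so p-values measure the spread between these libraries, which may be technical.

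Hypoxia-inducible factors are pairs of an alpha subunit, HIF1A or EPAS1 (HIF-2 alpha), and the constant partner ARNT. In oxygen the alpha proteins are hydroxylated by EGLN prolyl hydroxylases, which need iron, 2-oxoglutarate and a reductant such as ascorbate, and are then bound by VHL and destroyed. This control acts on protein, which was not measured, and the factors' target genes are read out as RNA. Stabilized factors bind short DNA sequences with the core ACGTG or GCGTG near genes of glycolysis, which splits glucose to pyruvate and lactate and supplies much of the energy of endothelial cells.

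Start-site windows are given for members that changed over the course in either direction, since both kinds carry the core letters of these factors. RefSeq promoter windows (GRCh38.p14, 250 bases before to 50 bases after an annotated start) were present for 32 members, and VHL, SLC16A1, BNIP3L and NDRG1 have no entry. ACGTG was searched on both strands, so CACGTG counts as 2 overlapping matches. It was found in at least 1 window of 21 of the 32 members (65.6%) and of 24.9% of all 27305 genes. Members have more windows per gene, and per window the shares were 41.0% of 61 member windows and 21.4% of all 35116. GCGTG was found in 22 of the 32 members (68.8%) and in 40.6% of all genes. Per window its shares lay closer together, at 44.3% of member windows and 36.5% of all windows. Of the members that rose at 24 h, 6 of 9 with a window used held ACGTG, as did 6 of 8 that fell and 8 of 14 that were not called. A match describes letters only and is not a bound site. Shown are the windows with the most matches for HK2 and PGK1, which rose at 24 h, and for ALDOC, DDIT4 and ENO2, which fell at 24 h and rose between 24 h and 60 h. The windows are HK2 at chr2:74834920-74835219 on the plus strand, PGK1 at chrX:78103998-78104297 on the plus strand, ALDOC at chr17:28576846-28577145 on the minus strand, DDIT4 at chr10:72273674-72273973 on the plus strand and ENO2 at chr12:6914330-6914629 on the plus strand. Capitals mark ACGTG or its reverse complement.
HK2: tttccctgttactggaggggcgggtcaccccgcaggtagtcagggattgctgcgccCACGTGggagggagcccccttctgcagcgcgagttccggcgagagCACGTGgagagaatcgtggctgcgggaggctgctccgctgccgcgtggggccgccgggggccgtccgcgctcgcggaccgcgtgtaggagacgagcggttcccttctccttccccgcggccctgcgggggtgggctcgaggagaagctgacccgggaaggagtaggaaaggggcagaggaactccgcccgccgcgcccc
PGK1: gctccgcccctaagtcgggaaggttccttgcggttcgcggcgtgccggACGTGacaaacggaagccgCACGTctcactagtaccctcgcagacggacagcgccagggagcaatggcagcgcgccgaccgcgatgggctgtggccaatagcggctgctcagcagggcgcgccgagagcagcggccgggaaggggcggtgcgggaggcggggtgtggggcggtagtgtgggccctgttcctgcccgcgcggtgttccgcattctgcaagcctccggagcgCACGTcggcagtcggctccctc
ALDOC: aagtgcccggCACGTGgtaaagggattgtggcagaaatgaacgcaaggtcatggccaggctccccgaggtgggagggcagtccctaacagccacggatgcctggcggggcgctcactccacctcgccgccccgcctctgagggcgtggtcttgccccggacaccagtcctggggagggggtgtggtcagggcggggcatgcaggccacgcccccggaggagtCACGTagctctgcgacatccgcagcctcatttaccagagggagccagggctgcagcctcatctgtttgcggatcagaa
DDIT4: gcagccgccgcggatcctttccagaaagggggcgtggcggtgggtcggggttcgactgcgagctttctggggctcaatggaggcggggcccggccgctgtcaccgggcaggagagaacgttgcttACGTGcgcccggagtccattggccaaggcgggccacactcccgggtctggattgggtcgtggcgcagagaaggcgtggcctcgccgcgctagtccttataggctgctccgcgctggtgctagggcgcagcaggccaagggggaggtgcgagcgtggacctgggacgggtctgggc
ENO2: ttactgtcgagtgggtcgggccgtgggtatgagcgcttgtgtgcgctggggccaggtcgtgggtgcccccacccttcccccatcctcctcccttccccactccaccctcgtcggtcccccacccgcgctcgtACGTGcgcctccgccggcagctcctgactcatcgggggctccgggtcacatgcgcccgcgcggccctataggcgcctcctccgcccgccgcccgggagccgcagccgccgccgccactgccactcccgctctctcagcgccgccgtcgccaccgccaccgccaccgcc
HK2 holds CACGTG at 2 places, which accounts for its 4 matches, and ALDOC holds it once beside a single further match. PGK1 has 3 separate matches, 1 of them after the start. DDIT4 and ENO2 have 1 match each. EPAS1 and HIF1A have no ACGTG in their windows and 1 GCGTG each.

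The 13 count libraries held 6214675 to 11058345 counted reads, so that 3 counts correspond to 0.271 to 0.483 CPM (reads per gene scaled to a common library total). The TPM tables of the sorted cells give no depth. Members took 0.982% to 1.23% of the counts of course libraries, 1.41% and 1.28% in suspended cells at 60 h and 96 h, and 1.25% to 2.11% of TPM in sorted libraries. All endothelial markers measured, 12 in the count libraries and 11 in the TPM tables, were above 0 in every library, with summed levels of 8106 to 12678 CPM over the course. The blood markers summed to 1545 to 1992 CPM in Vc+ and 740.5 to 1158 CPM in Vc- course libraries. PTPRC, the CD45 antigen of blood cells, was at 0 in all 5 Vc- libraries and in the Vc+ libraries at 0 h and 24 h. In these bulk samples, fewer cells of a type and less RNA per cell cannot be told apart. Counts of BNIP3 and TPI1 are uncertain because annotated pseudogenes named after them held up to 19.5% and 4.01% as many counts. DDIT4, CA9 and ANKRD37 share 41.2%, 38.5% and 35.2% of their exonic bases with DDIT4-AS1, ARHGEF39 and UFSP2, and the strand of the libraries is not given in the sources used here.

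The balance between genes that do the same step was set per length of exon. It gives a rough measure of which isoform was the more abundant as RNA. EPAS1 made up 11.4% of the summed level of HIF1A and EPAS1 (counts per kilobase of exon) in the Vc+ library at 0 h. It made up 35.7% at 24 h, 42.9% at 36 h, 43.5% at 48 h and 49.0% at 60 h. In the Vc- libraries it made up 4.78%, 24.9%, 39.5%, 40.9% and 49.6% at the same times. The share therefore climbed in both conditions, from a higher start in Vc+. It was 21.6% in suspended cells at 60 h and 7.32% at 96 h, and 54.3% in adherent cells at 60 h. HK1, the hexokinase that starts glycolysis in most tissues, held 78.2% to 92.5% of the summed level of HK1 and HK2 over the course. The inducible HK2 took the rest, most at 24 h in both conditions. Over the course ALDOA held 92.3% to 98.6% of its summed level with ALDOC. ENO1 held 89.4% to 98.0% of its summed level with ENO2. The large changes of ALDOC and ENO2 described next were thus changes of minor isoforms. ENO3, an enolase outside the member list, is not in these shares. It had 332 to 420 CPM in course libraries, against 24.8 to 135 CPM for ENO2. LDHB, which favours use of lactate, exceeded LDHA, which favours its production, in all 17 libraries. The share of LDHA was 17.1% to 28.3% over the course and 18.4% to 41.4% of summed TPM in sorted cells. The 6-phosphofructo-2-kinases set the level of a phosphofructokinase activator. Of the summed level of PFKFB3 and PFKFB4, PFKFB3 held 63.7% to 93.0% in course libraries and the larger part in adherent cells. PFKFB4 held 54.7% of it in suspended cells at 60 h and 66.7% at 96 h. In the sorted cells PFKFB4 held 49.6% and 52.1% in Vc+ and 51.9% and 35.8% in Vc-. PFKFB2, which is not a member, is left out of these shares. It had 15.5 to 32.0 CPM over the course. In the Vc+ library at 0 h it had 32.0 CPM, against 23.9 CPM for PFKFB3. Shares from TPM and from counts were made differently, can disagree and are not compared. SLC16A1 held 82.5% and 84.4% of its summed level with SLC16A3 in the Vc+ and Vc- counts at 0 h. In the TPM of sorted cells it held 18.5% to 46.9%, so these shares do not settle which carrier was the more abundant. Of all members, GAPDH was the most abundant per length in the sorted cells, at 4409 and 6686 TPM in Vc+ and 5062 and 6099 TPM in Vc-. These shares and levels describe single libraries.

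**Figure D1:**
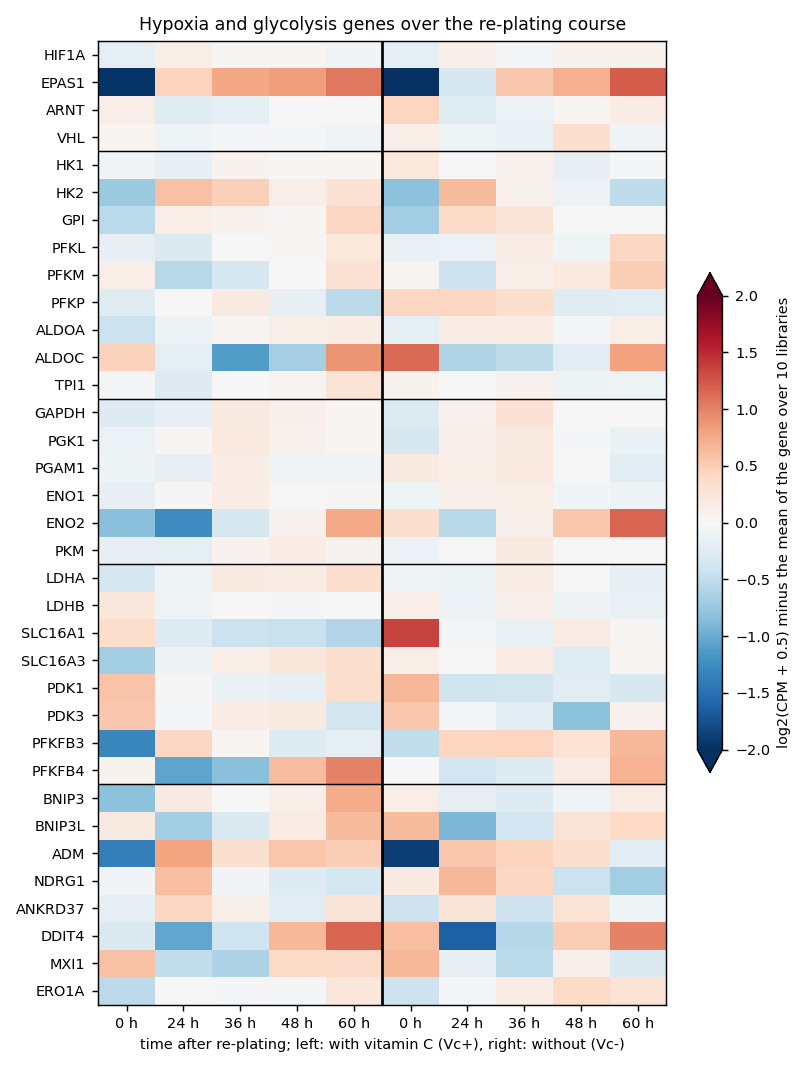
Heat map of 35 member genes (rows, grouped by role; CA9, at 0 to 0.58 CPM, is left out) in the 10 course libraries, Vc+ at the left and Vc- at the right, with time in hours along each block. Colour gives log2(CPM + 0.5) minus the mean of the gene over the 10 libraries, so EPAS1 runs from dark blue at 0 h to red at 60 h in both conditions, and ENO2 and DDIT4 have their highest values at 60 h.

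The first day after re-plating was compared at 24 h against 0 h, with vitamin C as a covariate and 2 libraries per time. EPAS1, the glucose-trapping enzyme HK2, the vasodilator peptide ADM and the glycolytic activator PFKFB3 rose, whereas the lactate carrier SLC16A1, the mitophagy receptor BNIP3L, the growth inhibitor DDIT4 and the minor aldolase ALDOC fell. Of the 35 members tested, 10 rose and 10 fell, called at an adjusted p under 0.05 (edgeR quasi-likelihood test, Benjamini-Hochberg adjusted over all genes). Levels are CPM after TMM scaling, which aligns the libraries on the bulk of their genes. CA9, a carbonic anhydrase used as a hypoxia marker, had too few counts to be tested. Of all 16276 genes tested 33.3% were called, 16.2% higher and 17.2% lower. The members' median log2 difference was 0.059, against -0.022 over all genes.

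Among the hypoxia factors, EPAS1 had 339 CPM in the Vc+ library and 198 CPM in the Vc- library at 24 h, against 63.4 and 24.7 CPM at 0 h. Both 24 h libraries lay above both 0 h libraries, and the log2 difference was 2.62 ± 0.26 (SE), edgeR adjusted p = 1.81e-05. HIF1A had 429.8 CPM in the Vc+ library and 422 CPM in the Vc- library at 24 h, against 348 and 347 CPM at 0 h. The 24 h values again lay above, by a smaller log2 difference of 0.29 ± 0.088 (SE), edgeR adjusted p = 0.0221. ARNT had 45.3 CPM in the Vc+ library and 45.3 CPM in the Vc- library at 24 h, against 58.7 and 72.3 CPM at 0 h. It fell by 0.53 on the log2 scale (edgeR adjusted p = 0.00619), with no overlap between the times. VHL, which hands hydroxylated alpha subunits to degradation, was not called (-0.17 ± 0.13).

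In the first steps of glycolysis, HK2 had 95.7 CPM in the Vc+ library and 99.5 CPM in the Vc- library at 24 h, against 37.8 and 36.0 CPM at 0 h. The log2 difference was 1.41 ± 0.18 (SE), edgeR adjusted p = 8.49e-05, and the groups did not overlap. HK1 was not called (-0.16 ± 0.11). GPI, which turns glucose 6-phosphate into fructose 6-phosphate, had 171 CPM in the Vc+ library and 203 CPM in the Vc- library at 24 h, against 107 and 96.1 CPM at 0 h. Its log2 difference was 0.88 ± 0.15 (SE), edgeR adjusted p = 0.000658. Of the phosphofructokinases, which catalyse the committed step, PFKM, the muscle form, had 42.2 CPM in the Vc+ library and 46.6 CPM in the Vc- library at 24 h, against 67.9 and 64.7 CPM at 0 h. PFKM fell by 0.59 on the log2 scale (edgeR adjusted p = 0.00685), and PFKL (-0.058 ± 0.11) and PFKP (0.12 ± 0.14) were not called. ALDOC, the brain form of aldolase, had 17.2 CPM in the Vc+ library and 12.7 CPM in the Vc- library at 24 h, against 27.2 and 43.3 CPM at 0 h. Its log2 difference was -1.21 ± 0.25 (SE), edgeR adjusted p = 0.00285, while ALDOA rose (0.32 ± 0.10 (SE), edgeR adjusted p = 0.0267).

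From triose phosphate to pyruvate 2 of 6 enzymes were called: PGK1, which makes the first ATP of the pathway, rose by 0.28 on the log2 scale and ENO2, the neuronal enolase, fell by 0.69 although its values overlapped between the times when both conditions are pooled (edgeR adjusted p = 0.0321 for PGK1 and 0.011 for ENO2). GAPDH, which oxidizes the triose phosphate, PGAM1, the mutase after it, the main enolase ENO1 and the pyruvate kinase PKM were not called and had log2 differences of -0.057 to 0.23, and neither was TPI1, which interconverts the triose phosphates (-0.14 ± 0.13). Of the lactate carriers and switches, SLC16A1, a plasma membrane carrier of lactate, had 191 CPM in the Vc+ library and 224 CPM in the Vc- library at 24 h, against 292 and 585 CPM at 0 h. All 24 h values lay below those at 0 h, with a log2 difference of -1.01 ± 0.15 (SE), edgeR adjusted p = 0.000395. Its relative SLC16A3, the lactate exporter of glycolytic cells, was not called (0.18 ± 0.22). PDK1, which blocks the entry of pyruvate into the mitochondrial cycle, had 30.5 CPM in the Vc+ library and 22.6 CPM in the Vc- library at 24 h, against 44.8 and 47.8 CPM at 0 h. It differed by -0.82 ± 0.18 (SE), edgeR adjusted p = 0.00454, and its relative PDK3 was not called (-0.60 ± 0.35). PFKFB3 had 79.5 CPM in the Vc+ library and 80.3 CPM in the Vc- library at 24 h, against 23.9 and 42.2 CPM at 0 h. It rose by 1.33 ± 0.18 (SE), edgeR adjusted p = 0.000166, and PFKFB4 was not called (-0.74 ± 0.30). LDHB fell by 0.27 on the log2 scale and LDHA was not called (0.11 ± 0.14).

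The other targets of hypoxia-inducible factors were split. ADM had 17.5 CPM in the Vc+ library and 14.6 CPM in the Vc- library at 24 h, against 3.51 and 2.31 CPM at 0 h. Both 24 h libraries stood far above both 0 h libraries, with a log2 difference of 2.46 ± 0.29 (SE), edgeR adjusted p = 5.15e-05. BNIP3L had 55.0 CPM in the Vc+ library and 47.1 CPM in the Vc- library at 24 h, against 99.6 and 138 CPM at 0 h. It fell with no overlap (-1.22 ± 0.16 (SE), edgeR adjusted p = 0.000147). DDIT4, an inhibitor of the growth kinase mTOR, had 7.79 CPM in the Vc+ library and 4.99 CPM in the Vc- library at 24 h, against 13.4 and 25.1 CPM at 0 h. Its log2 difference was -1.60 ± 0.31 (SE), edgeR adjusted p = 0.00192, with no overlap. NDRG1, a stress-induced gene, and ERO1A, an oxidase of the endoplasmic reticulum, rose by 0.59 and 0.46 on the log2 scale, and MXI1, an antagonist of MYC, fell by 0.96. BNIP3, a mitophagy receptor like BNIP3L, and ANKRD37 were not called (0.27 ± 0.27 and 0.70 ± 0.36). The 15 members tested but not called had log2 differences of -0.74 (PFKFB4) to 0.70 (ANKRD37).

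All 20 called members kept their sign in every alternative. The calls of EPAS1, ADM, HK2, PFKFB3, GPI, DDIT4, BNIP3L and SLC16A1 held without any 1 library. Without the Vc- 24 h library HIF1A, ARNT, PFKM, ALDOA, ALDOC, PGK1, ENO2, LDHB, PDK1 and NDRG1 were no longer called. HIF1A, ENO2, MXI1 and ERO1A were lost without the Vc- 0 h library and also without the Vc+ 24 h library. The first of these also cost ARNT and PGK1, and the second LDHB and NDRG1. Without the Vc+ 0 h library PFKM, ALDOA, LDHB and NDRG1 were lost. LDHB was also lost without the Vc- 36 h library and PGK1 without the Vc+ 36 h library. Beside these changes, mesenchymal markers summed to 655 CPM in the Vc+ and 925 CPM in the Vc- library at 24 h, against 2207 and 2056 CPM at 0 h, and 5 of 8 tested were called, 4 of them lower. Of 12 endothelial markers 7 rose and 1 fell. Their part in the members' changes was not tested. In lists of related genes chosen by name, SLC2A1, the main glucose importer, rose by 2.02 on the log2 scale and HIF3A, a relative of the alpha subunits, fell by 1.63, among 4 higher and 5 lower of 21 other hypoxia genes tested. EGLN1, an oxygen-sensing hydroxylase that is itself a known target, rose by 1.01. Of 11 other glycolysis genes 2 rose and 3 fell, of which PGM1, an enzyme between glycogen and glycolysis, fell by 1.52. Of 20 genes from pyruvate to the mitochondrial cycle 5 rose and 2 fell, led by IDH3A with a rise of 1.26.

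**Figure D2:**
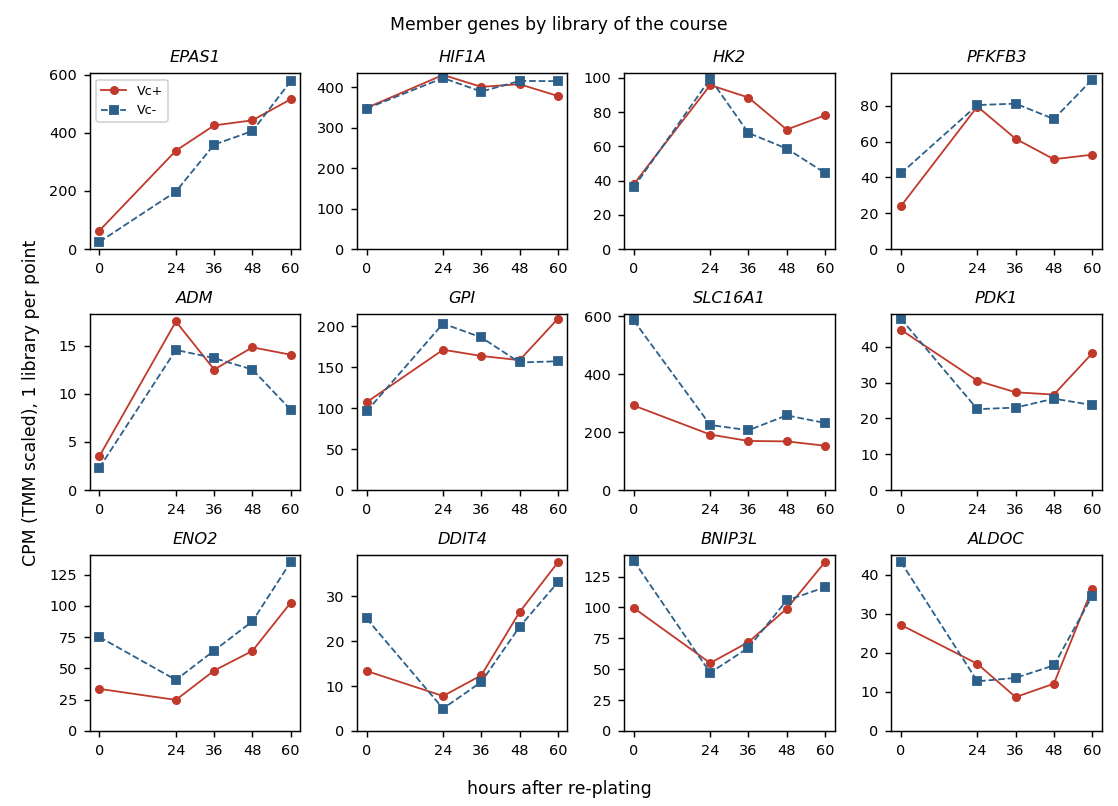
CPM (TMM scaled) of 12 member genes against hours after re-plating, 1 library per point, with Vc+ as red circles on a solid line and Vc- as blue squares on a dashed line; axes start at 0. EPAS1 climbs at each time in both conditions, SLC16A1 is highest at 0 h, and ENO2, DDIT4, BNIP3L and ALDOC dip and then climb.

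The remaining course was compared at 60 h against 24 h, in the same model. This comparison shares its 24 h libraries with the first, so an error in them moves both in opposite directions. Of the 35 members tested 8 rose and 3 fell, against 12.1% higher and 11.4% lower, together 23.5%, of all 16276 genes (edgeR quasi-likelihood test, Benjamini-Hochberg adjusted). EPAS1, the growth inhibitor DDIT4, the mitophagy receptor BNIP3L, the minor isoforms ENO2 and ALDOC and the kinase PFKFB4 rose, and NDRG1, HK2 and PFKP fell. The members' median log2 difference was 0.12, against 0.019 over all genes.

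EPAS1 had 516 CPM in the Vc+ library and 578 CPM in the Vc- library at 60 h, against 339 and 198 CPM at 24 h. Both 60 h values lay above both 24 h values, with a log2 difference of 1.09 ± 0.24 (SE), edgeR adjusted p = 0.00661. It was no longer called without the Vc- 24 h library or without the Vc- 60 h library. HIF1A had 378 CPM in the Vc+ library and 414 CPM in the Vc- library at 60 h, against 429.8 and 422 CPM at 24 h. HIF1A was not called (-0.11 ± 0.088), and neither were ARNT and VHL.

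Of the glycolytic enzymes, ENO2 had 103 CPM in the Vc+ library and 135 CPM in the Vc- library at 60 h, against 24.8 and 40.8 CPM at 24 h. It was higher at 60 h in both conditions, by 1.88 ± 0.18 (SE), edgeR adjusted p = 2.84e-05. PFKM had 75.9 CPM in the Vc+ library and 87.6 CPM in the Vc- library at 60 h, against 42.2 and 46.6 CPM at 24 h. It rose by 0.88 ± 0.14 (SE), edgeR adjusted p = 0.000881. PFKL, the liver form, had 199 CPM in the Vc+ library and 231 CPM in the Vc- library at 60 h, against 141 and 158 CPM at 24 h, a log2 difference of 0.52 ± 0.11 (SE), edgeR adjusted p = 0.00465. The platelet form PFKP had 161 CPM in the Vc+ library and 201 CPM in the Vc- library at 60 h, against 232 and 314 CPM at 24 h, a log2 difference of -0.59 ± 0.14 (SE), edgeR adjusted p = 0.0109. The phosphofructokinase isoforms thus moved in opposite directions, and the share of PFKP per length was 50.5% in Vc+ and 52.4% in Vc- at 60 h, against 68.9% and 72.9% at 24 h. ALDOC had 36.4 CPM in the Vc+ library and 34.6 CPM in the Vc- library at 60 h, against 17.2 and 12.7 CPM at 24 h. It rose by 1.25 ± 0.25 (SE), edgeR adjusted p = 0.0036. HK2 had 78.0 CPM in the Vc+ library and 44.5 CPM in the Vc- library at 60 h, against 95.7 and 99.5 CPM at 24 h. It fell, with a log2 difference of -0.71 ± 0.17 (SE), edgeR adjusted p = 0.0105. The times did not overlap for any of these enzymes. ALDOC was no longer called without the Vc- 24 h library, HK2 without the Vc- library of either time, PFKL without the Vc- 60 h or Vc+ 24 h library, and PFKP without the Vc- library of either time or the Vc+ 60 h library.

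PFKFB4 had 26.3 CPM in the Vc+ library and 21.4 CPM in the Vc- library at 60 h, against 6.004 and 9.84 CPM at 24 h. It rose by 1.58 ± 0.29 (SE), edgeR adjusted p = 0.00211, and PFKFB3 was not called (-0.18 ± 0.17). DDIT4 had 37.6 CPM in the Vc+ library and 33.1 CPM in the Vc- library at 60 h, against 7.79 and 4.99 CPM at 24 h, the largest member difference at 2.48 ± 0.30 (SE), edgeR adjusted p = 0.000152. BNIP3L had 137 CPM in the Vc+ library and 116 CPM in the Vc- library at 60 h, against 55.0 and 47.1 CPM at 24 h. It rose by 1.31 ± 0.16 (SE), edgeR adjusted p = 0.000177. NDRG1 had 22.2 CPM in the Vc+ library and 17.5 CPM in the Vc- library at 60 h, against 43.8 and 45.8 CPM at 24 h. It fell, with a log2 difference of -1.18 ± 0.19 (SE), edgeR adjusted p = 0.000993. Its 60 h values lay below those at 24 h in both conditions. The 24 members tested but not called had log2 differences of -0.54 (ADM) to 0.48 (BNIP3). Set beside 0 h, and without a test, ENO2, DDIT4, PFKM, HK2 and EPAS1 were higher at 60 h than in either 0 h library. BNIP3L at 137 and 116 CPM at 60 h, against 99.6 and 138 CPM at 0 h in Vc+ and Vc-, and ALDOC at 36.4 and 34.6 CPM, against 27.2 and 43.3 CPM, overlapped with their starting levels.

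The cell-cycle list fell at 60 h in 16 of 16 genes, with summed levels of 1648 CPM in the Vc+ and 949.7 CPM in the Vc- library at 60 h, against 2630 and 2703 CPM at 24 h. Of 9 erythroid markers tested 9 rose, and of 11 blood markers 7 rose and 1 fell. SLC4A1, the band 3 protein of mature red cells, was at 0 in both 24 h libraries and in the Vc+ library at 60 h. The part of cell types and cycling in the members' changes was not tested. Of 21 other hypoxia genes 7 rose and 1 fell, with HIF3A at 1.24 ± 0.14 and VEGFA, the vascular growth factor, at 1.63 ± 0.36 on the log2 scale, and SLC2A1 as the gene that fell (-0.50 ± 0.12). PDK4, the fasting-induced pyruvate dehydrogenase kinase, rose by 3.92 among 4 of 11 other glycolysis genes that rose, and none of 20 genes from pyruvate to the mitochondrial cycle was called.

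**Figure D3:**
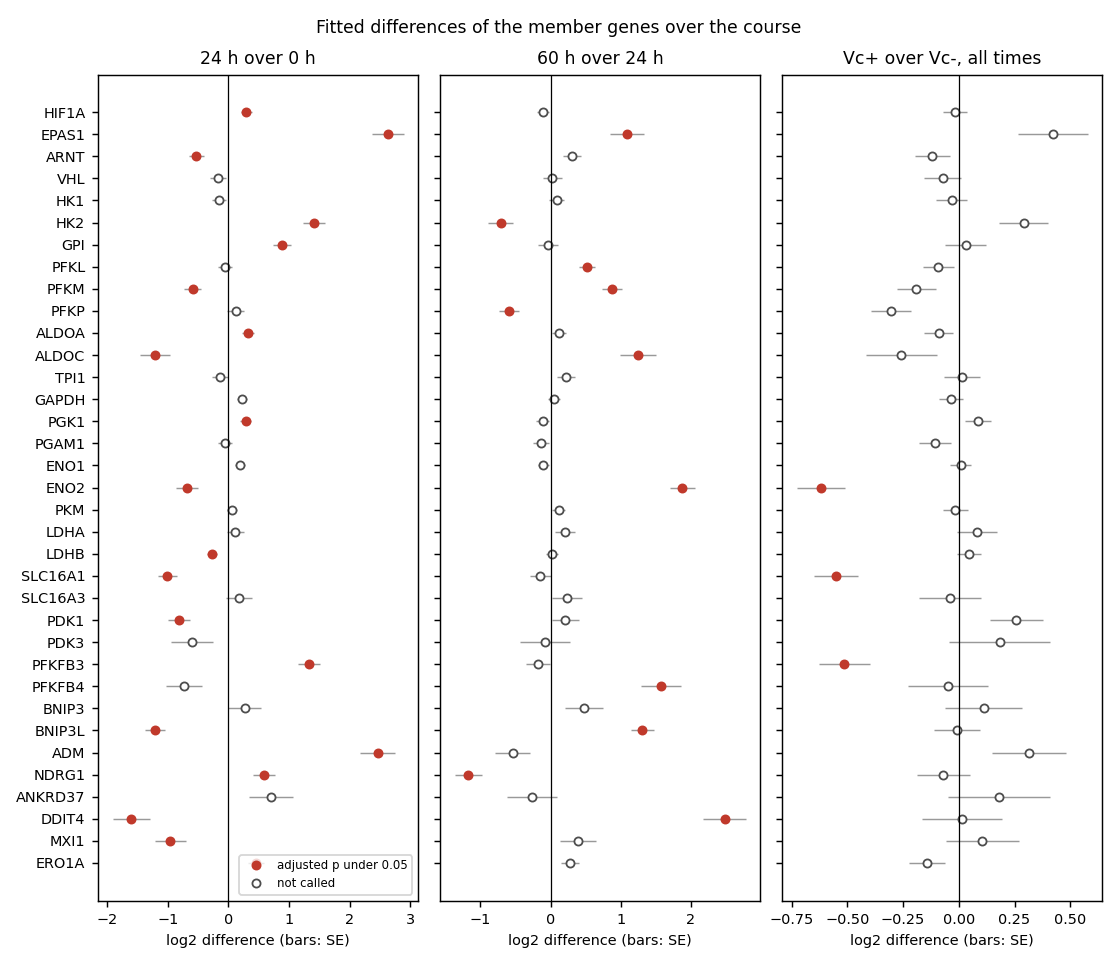
Fitted log2 differences of 35 member genes (rows) for 24 h over 0 h, 60 h over 24 h, and Vc+ over Vc- across all times, from edgeR; bars are standard errors, and filled red points have an adjusted p under 0.05. EPAS1 and ADM lie farthest right in the first panel, DDIT4 and ENO2 in the second, and ENO2, SLC16A1 and PFKFB3 are the filled points of the third, all to the left; the panels differ in scale.

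Vitamin C was compared over the course, Vc+ against Vc-, with time as a factor and 5 libraries per condition. Lower in Vc+ were the enolase isoform ENO2, the lactate carrier SLC16A1 and the activator PFKFB3. No member was called higher, so 3 of 35 members were called, against 5.87% of all genes (2.50% higher and 3.37% lower). The members' median log2 difference was -0.017, against 0.0071 over all genes.

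ENO2 had 33.7, 24.8, 48.3, 64.0 and 103 CPM in Vc+ libraries at 0, 24, 36, 48 and 60 h, against 75.1, 40.8, 64.3, 87.7 and 135 CPM in Vc- libraries. It was lower in Vc+ at 5 of 5 times, with a log2 difference of -0.62 ± 0.11 (SE), edgeR adjusted p = 0.00506. SLC16A1 had 292, 191, 169, 168 and 153 CPM in Vc+ libraries, against 585, 224, 206, 258 and 231 CPM in Vc- libraries. It was lower in Vc+ at 5 of 5 times, most at 0 h, with a log2 difference of -0.55 ± 0.098 (SE), edgeR adjusted p = 0.00529. PFKFB3 had 23.9, 79.5, 61.5, 50.1 and 52.7 CPM in Vc+ libraries, against 42.2, 80.3, 81.1, 72.6 and 94.6 CPM in Vc- libraries. It was lower in Vc+ at 5 of 5 times, though hardly at 24 h, with a log2 difference of -0.51 ± 0.11 (SE), edgeR adjusted p = 0.0182. PFKFB3 was no longer called without either 48 h library, either 60 h library or the Vc+ 36 h library, and with no term for time none of the 3 was called. ARNT, the shared partner of the alpha subunits, was also lower at all 5 times without being called. At 24 h its conditions were practically level (log2 ratio -3e-04). Over all genes, 8.86% were higher and 8.72% lower in Vc+ at all 5 times.

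EPAS1 had 63.4, 339, 426, 443 and 516 CPM in Vc+ libraries, against 24.7, 198, 359.6, 406 and 578 CPM in Vc- libraries. The Vc+ value was higher at 4 of 5 times, and the log2 ratio of Vc+ to Vc- was 1.34 at 0 h, 0.77 at 24 h, 0.24 at 36 h, 0.13 at 48 h and -0.16 at 60 h. EPAS1 was not called over the course (0.42 ± 0.16 (SE), edgeR adjusted p = 0.155), and it was called without either 60 h library. HIF1A had 348, 429.8, 400.4, 407 and 378 CPM in Vc+ libraries, against 347, 422, 389, 415 and 414 CPM in Vc- libraries. The conditions stayed close at every time, with a log2 difference of -0.017 ± 0.056 (SE), edgeR adjusted p = 0.915. The isoforms and relatives of the called members were not called: ENO1 differed by 0.0078 ± 0.049, SLC16A3 by -0.039 ± 0.14, and PFKFB4 by -0.048 ± 0.18 on the log2 scale. The 32 members that were not called had log2 differences of -0.30 (PFKP) to 0.42 (EPAS1).

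Beside these differences, 10 of 11 tested blood markers were higher in Vc+, with summed levels of 1545 to 1992 CPM against 740.5 to 1158 CPM in Vc-, and 5 of 8 mesenchymal markers were lower, with sums of 531 to 2207 CPM in Vc+ against 925 to 2056 CPM in Vc-. Of endothelial markers 4 of 12, and of cell-cycle genes 2 of 16, were higher in Vc+. Their part in the members' differences was not tested. Of 21 other hypoxia genes 1 was higher, the hydroxylase EGLN3 (0.83 ± 0.14), and 3 were lower: SLC2A1 (-0.56 ± 0.077), HIF3A (-0.48 ± 0.086), and P4HA2, a collagen prolyl hydroxylase (-0.48 ± 0.11). No gene of the lists of other glycolysis genes, the pentose phosphate pathway and pyruvate to the mitochondrial cycle was called.

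Whether the change over hours differed between conditions was tested as the interaction of vitamin C and hours, scaled to 60 h. No gene of 16276 tested passed (edgeR quasi-likelihood test), and DESeq2 called 11 genes and no member. An unadjusted edgeR p under 0.05 was found for 473 genes, 3 of them members. The 3 members were SLC16A3 (log2 difference in slope 1.18 ± 0.29), BNIP3 (1.34 ± 0.43) and LDHA (0.68 ± 0.26), each with an edgeR adjusted p of 1. SLC16A3 had 105, 156, 185, 196 and 209.6 CPM in Vc+ libraries over the 5 times, against 183, 169, 189, 142 and 173 CPM in Vc- libraries. It climbed at each time in Vc+ and showed no such order in Vc-. LDHA had 267, 321, 386, 377 and 433 CPM in Vc+ libraries, against 322, 317, 379.5, 342 and 307 CPM in Vc- libraries. BNIP3 had 21.0, 42.5, 37.0, 41.0 and 63.0 CPM in Vc+ libraries, against 40.8, 32.5, 31.2, 35.3 and 41.9 CPM in Vc- libraries. At 60 h the Vc+ value was the higher one for all 3 genes, and at 0 h the lower one. Their choice by slope in these same libraries favours such a pattern. The difference in slope was positive for 27 of 35 members, with a median of 0.34, against 50.4% of all genes and a median of 0.0056. It was positive in 16 of 16 genes of the cell-cycle list as well, with a median of 0.66. The members' median log2 ratio of Vc+ to Vc- was -0.095 at 0 h, -0.064 at 24 h, -0.082 at 36 h, 0.11 at 48 h and 0.12 at 60 h. EPAS1 had a negative difference in slope (-1.53 ± 1.13), which was 0.39 without the Vc- 0 h library, and HIF1A was at -0.12 ± 0.26, neither called.

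In the sorted cells, Vc+ was compared with Vc- in 2 libraries per condition on log2(TPM + 1) with limma. For 2 of the 4 libraries the title and the description give opposite vitamin C conditions. Groups here follow the titles, each direction below holds for that grouping only, and the values by the descriptions (both libraries numbered 2 as Vc+, both numbered 1 as Vc-) stand beside them. No gene of 14421 tested was called (0%), and 313 genes had an unadjusted p under 0.05, of which SLC16A1 was the only member. A fold change on this scale understates that of low genes. SLC16A1 had 65.6 and 140.1 TPM in the Vc+ libraries, against 172 and 235 TPM in the Vc- libraries, lower in Vc+ without overlap (log2 difference -1.06 ± 0.41, limma adjusted p = 0.9998). Grouped by the descriptions, its difference turned to 0.77 ± 0.45 and the groups overlapped. EPAS1 had 72.6 and 18.7 TPM in the Vc+ libraries, against 50.2 and 9.94 TPM in the Vc- libraries. The groups overlapped widely, since the libraries numbered 1 exceeded those numbered 2 in both conditions (log2 difference 0.69 ± 0.92, limma adjusted p = 0.9998). By the descriptions EPAS1 was lower in Vc+, with a log2 difference of -2.06 ± 0.35 (SE, limma adjusted p = 0.0476), among 156 called genes. HIF1A had 267 and 127 TPM in the Vc+ libraries, against 271 and 204 TPM in the Vc- libraries, also overlapping (-0.35 ± 0.41, and -0.74 ± 0.26 by the descriptions). ENO2 had 59.6 and 78.0 TPM in the Vc+ libraries, against 119.7 and 93.4 TPM in the Vc- libraries, and its Vc+ values lay below both Vc- values (-0.63 ± 0.28), a difference that was 0.013 ± 0.34 by the descriptions. PFKFB3 had 19.4 and 14.7 TPM in the Vc+ libraries, against 17.96 and 19.8 TPM in the Vc- libraries, with overlap.

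Of the 36 members, 9 lay lower in Vc+ without overlap by the titles: ARNT, HK1, PFKP, ALDOC, ENO2, SLC16A1, CA9, MXI1 and ERO1A. ANKRD37, a small target gene of hypoxia-inducible factors, was the single member that lay higher. Over all tested genes 19.3% lay lower and 9.09% higher without overlap. By the descriptions none of these 10 members was free of overlap, and HK1, PFKP, ALDOC, ENO2 and SLC16A1 had the opposite sign, as had 20 of the 36 members in all. Instead 13 members lay higher in Vc+ without overlap, among them ENO1 (1.03 ± 0.34), LDHA (0.98 ± 0.38) and BNIP3 (1.01 ± 0.28), and 8 lay lower, among them EPAS1, HIF1A and VHL, against 17.9% of all genes higher and 37.1% lower. EPAS1 was the only member called under either grouping. CA9 had 0.960 and 0.660 TPM in the Vc+ libraries, against 2.38 and 2.30 TPM in the Vc- libraries. In the Vc+ library numbered 1 the cell-cycle list summed to 805 TPM, against 3076 to 3632 TPM in the other sorted libraries, and the same library was lowest of the 4 for ENO1, LDHA, PKM, PGAM1, TPI1, GAPDH, ALDOA and PGK1. ENO1 had 899 and 3012 TPM in the Vc+ libraries, against 1800.2 and 2253 TPM in the Vc- libraries. LDHA had 216 and 607 TPM in the Vc+ libraries, against 516 and 715 TPM in the Vc- libraries. For both enzymes the Vc+ libraries lay further apart than the Vc- libraries and the conditions overlapped. The part of cycling in these levels was not tested. The direction of a vitamin C difference in the sorted cells therefore depends, for most members, on which label holds.

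**Figure D4:**
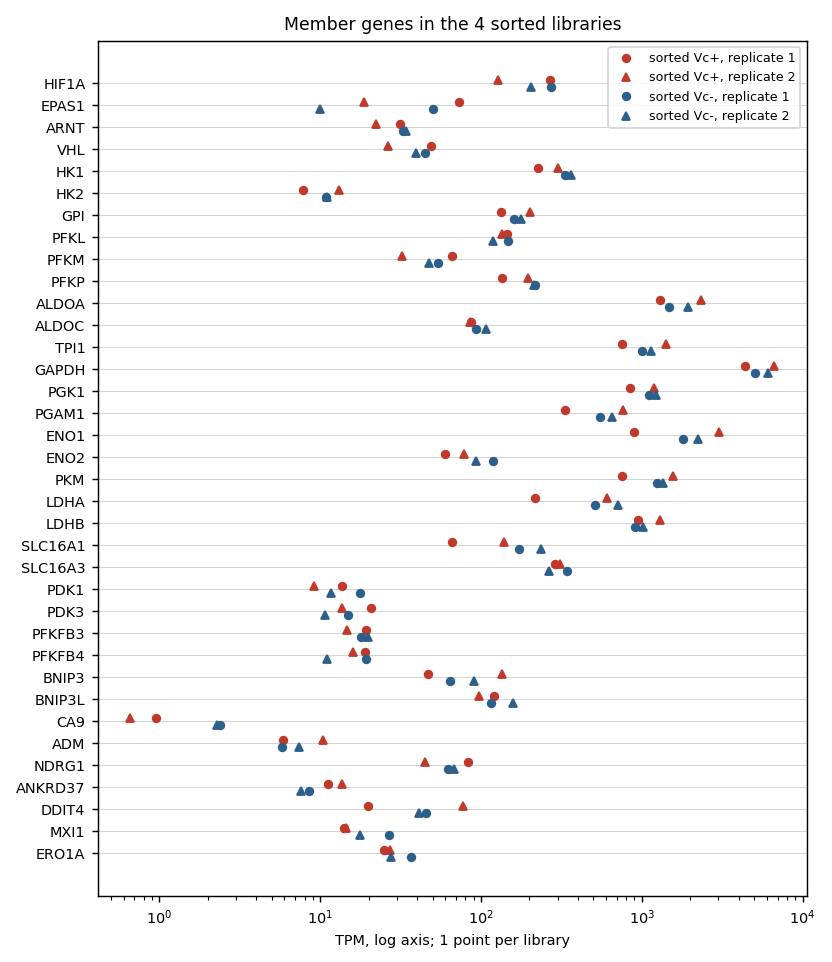
TPM of the 36 member genes (rows) in the 4 sorted libraries on a log axis, with Vc+ in red and Vc- in blue by their titles, circles for replicate 1 and triangles for replicate 2. For EPAS1 both circles lie right of both triangles, and for SLC16A1, ENO2 and CA9 both red points lie left of both blue points.

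Suspended and adherent cells from Vc+ at 60 h were read in 1 library each, so no test was made, and CPM are of the library total. EPAS1 and the stress genes NDRG1 and ERO1A were lower in suspended cells, and LDHB was higher. Of 32 members that reached 20 CPM in either library, 1 was at least 2-fold higher and 3 were at least 2-fold lower in suspended cells, against 10.6% and 14.0% of all 9022 such genes. The members' median log2 ratio was 0.32, against 0.14 over all genes, and TMM scaling moved that of all genes to 0.019.

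EPAS1 had 82.2 CPM in suspended cells (95% Poisson interval 75.6 to 89.2) and 609 CPM in adherent cells (592 to 626), a log2 ratio of -2.88. HIF1A had 211 CPM in suspended cells (95% Poisson interval 200.4 to 222) and 362 CPM in adherent cells (349 to 375), a log2 ratio of -0.78. Both alpha subunits were thus lower in suspended cells, EPAS1 far more. ERO1A had 46.4 CPM in suspended cells (95% Poisson interval 41.5 to 51.8) and 116 CPM in adherent cells (109 to 124). NDRG1 had 9.34 CPM in suspended cells (95% Poisson interval 7.21 to 11.9) and 23.9 CPM in adherent cells (20.7 to 27.5). Both were more than 2-fold lower in suspended cells, with log2 ratios of -1.32 and -1.31. ADM stayed below 20 CPM in both libraries and so fell outside the rule. It had 4.46 CPM in suspended and 18.5 CPM in adherent cells, a log2 ratio of -1.94. LDHB had 989 CPM in suspended cells (95% Poisson interval 966 to 1013) and 450.4 CPM in adherent cells (436 to 465), a log2 ratio of 1.13. PFKFB4 lay just short of the 2-fold rule (0.99), and HK2 followed at 0.91. Of the 15 genes from hexokinase to pyruvate kinase, 13 had a positive log2 ratio, and 12 lay above the median of all genes, both counts being the same with TMM scaling. The exceptions below 0 were PFKL (-0.49) and PGK1. The activator PFKFB3 was at -0.84. Of 20 genes from pyruvate to the mitochondrial cycle 20 had a positive log2 ratio (19 with TMM scaling), with a median of 0.52. None of them was 2-fold apart. Over all 9022 genes that reached 20 CPM, 57% had a positive log2 ratio without TMM scaling.

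The endothelial markers summed to 2730 CPM in suspended cells and 14004 CPM in adherent cells, and all 12 were at least 2-fold lower in suspended cells. Blood markers summed to 3135 and 1416 CPM, erythroid markers to 1011 and 37.5 CPM and the cell-cycle list to 2771 and 1314 CPM in suspended and adherent cells. PTPRC was at 0 in adherent cells. The part of these cell types and of cycling in the members' ratios was not tested.

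Suspended cells at 96 h were compared with those at 60 h in the same way. Of 31 members with at least 20 CPM, 4 were at least 2-fold lower at 96 h and none was higher, against 7.36% lower and 4.55% higher of 8509 genes. EPAS1 had 16.3 CPM in cells at 96 h (95% Poisson interval 14.0 to 18.8) and 82.2 CPM in cells at 60 h (75.6 to 89.2), a log2 ratio of -2.30. HIF1A had 145 CPM in cells at 96 h (95% Poisson interval 138 to 153) and 211 CPM in cells at 60 h (200.4 to 222), a log2 ratio of -0.54. DDIT4 had 17.8 CPM in cells at 96 h (95% Poisson interval 15.4 to 20.5) and 58.2 CPM in cells at 60 h (52.7 to 64.2), a log2 ratio of -1.68. GPI had 119 CPM in cells at 96 h (95% Poisson interval 113 to 126) and 254 CPM in cells at 60 h (242 to 266). HK2 had 50.6 CPM in cells at 96 h (95% Poisson interval 46.5 to 55.0) and 104 CPM in cells at 60 h (96.2 to 111). With log2 ratios of -1.09 and -1.03, GPI and HK2 lay just past the 2-fold rule, and only EPAS1 and DDIT4 stayed past it with TMM scaling. BNIP3L, known to clear mitochondria from maturing red cells, had 386 CPM in cells at 96 h (95% Poisson interval 375 to 398) and 220.1 CPM in cells at 60 h (209 to 231), the highest positive log2 ratio of a member at 0.81. Erythroid markers summed to 11997 CPM at 96 h and 1011 CPM at 60 h, and 11 of 11 were at least 2-fold higher. Their part in the members' ratios was not tested. The members' median log2 ratio was -0.26, against -0.17 over all genes, and TMM scaling moved that of all genes to -0.035.

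**Figure D5:**
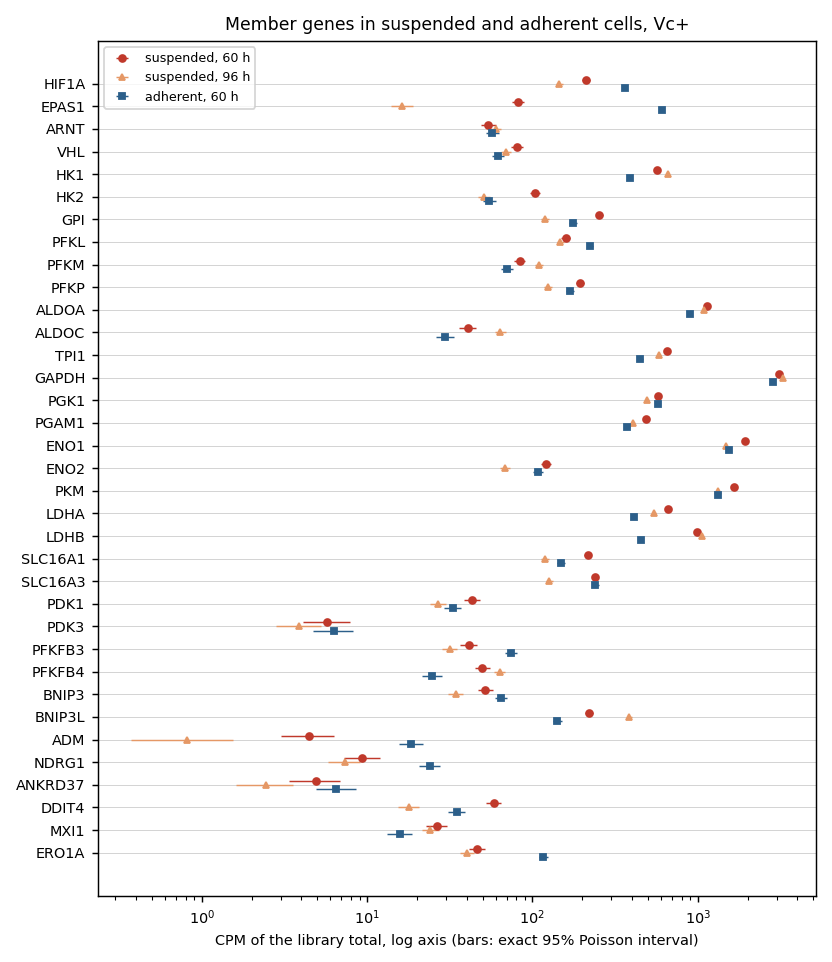
CPM of 35 member genes (rows; CA9 left out at 0 to 1 count) in Vc+ cells on a log axis, for suspended cells at 60 h (red circles), suspended cells at 96 h (orange triangles) and adherent cells at 60 h (blue squares), 1 library each; bars are exact 95% Poisson intervals and cover counting error only. EPAS1 spans 16.3 to 609 CPM between suspended cells at 96 h and adherent cells, the widest spread of any member above 20 CPM.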

How the data were processed

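RNA sequencing of 17 libraries was analysed. The authors deposited whole-number read counts per gene for 13 libraries and values read as TPM for the 4 sorted libraries, whose making is not stated. The submitters' processing notes give, without roles, DESeq 1.18.1, HTSeq 0.6.0, HISAT2 2.0.4 and SAMtools 1.3.1, and the builds hg38 and GRCh38. Symbols came from the gene table and GENCODE 29.

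The members and gene lists were chosen with earlier results of these data known. Per-library values are given for up to 12 called members per comparison by smallest p and always for HIF1A and EPAS1. From other lists up to 4 called genes are named.

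Counts of the 10 course libraries were fitted with edgeR 4.0.16 in R 4.3.3 (quasi-likelihood F test, TMM, filterByExpr, vitamin C plus time as a factor), and TPM with limma 3.58.1 (trend) on log2(TPM + 1) for genes with at least 1 TPM in 2 libraries. P-values are two-sided and were Benjamini-Hochberg adjusted across every gene tested (threshold 0.05), and steps were tested on simulated data. Each course time and condition has 1 library, so p-values measure departures among single libraries. In the fit of vitamin C plus time, these departures include any change of the vitamin C difference over time. Standard errors come from the F statistic. Course CPM are TMM scaled. Single-library pairs use CPM of the total, log2 ratios with 0.5 CPM added and exact Poisson intervals, which cover counting error only. Alternatives were DESeq2 1.42.0, its size factors, no filter, other pseudocounts, other groupings and scalings, and leaving out libraries.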

Additional observations from a re-analysis of the deposited data

How the results depend on the processing

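Grouping the sorted cells by the descriptions gave 156 called genes and 1 called member, EPAS1 at -2.06. Leaving out 1 sorted library gave 0 to 1 called genes, EPAS1 at -0.43 to 1.80 (-0.27 without Vc+ replicate 1) and HIF1A at -0.89 to 0.18. The numbers pair only 2 libraries each and mark no stated batch (correlation of deviations 0.565), and a fit with the replicate block called 0 genes, with 1237 at an unadjusted p under 0.05.

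For vitamin C over the course, 955 genes were called in all, against 1591 genes and 6 members (with EPAS1, HK2 and PFKP) without a filter on low counts, 28 genes and 0 members with no term for time, and 620 genes without the 60 h pair, an alternative chosen after seeing the data. That alternative put HIF1A at 0.0064. Leaving out 1 library gave 505 to 1209 genes, 2 to 4 members and HIF1A at -0.036 to 0.0074. For 24 h against 0 h it gave 2961 to 5492 genes and 10 to 22 members, and for 60 h against 24 h 1734 to 4541 genes and 7 to 12 members. For the difference in slope, DESeq2 called 11 genes and leaving out the 0 h pair gave 1. Leaving out 1 library put the slope of EPAS1 at -3.35 to 0.39 and of HIF1A at -0.49 to 0.093 (0.031 without the Vc+ 60 h library). TMM scaling left 2 members at least 2-fold apart between 96 h and 60 h. The cause of these shifts was not tested. Depth limits CA9, ADM, ANKRD37 and PDK3 most.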
